A study of Homo sapiens with 18 samples.

Results

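The p53 target genes described here are 40 genes listed as direct targets of the transcription factor p53, leaving out CDKN1A and MDM2. They were chosen by gene symbol: 40 of the 15358 genes in the MCF10A table and 39 of the 15257 genes in the hTERT RPE-1 table carried a symbol of the list. GDF15 had no row in the RPE-1 table and was not analysed there. All members in each table passed the filter on low values.

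Polyadenylated RNA was sequenced from 18 libraries, 9 from MCF10A, a breast epithelial line that is not tumour-derived, and 9 from hTERT RPE-1 (RPE-1 below), retinal pigment epithelial cells immortalised with telomerase. Each line had 3 groups of 3 biological replicates, numbered 7, 8 and 9 in MCF10A and 1, 2 and 3 in RPE-1. The cells had received 30 nM of a non-targeting siRNA (siNT), of a hsa-miR-28-5p mimic (miR-28) or of a hsa-miR-708-5p mimic (miR-708) for 72 h. The question was how levels of p53 target mRNAs differed between cells given either mimic and cells given siNT. The control is an siRNA and not a microRNA mimic, so an effect of carrying any mimic cannot be told apart from an effect of these sequences.

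p53 is a transcription factor that is kept scarce by the ubiquitin ligase MDM2 and accumulates when cells meet DNA damage, oncogene activity or a disturbed supply of ribosomal proteins. It binds response elements of paired decamers near its target genes and raises their transcription. The targets include death receptors, proteins that open the mitochondrial outer membrane, DNA repair factors, brakes on the cell cycle, metabolic enzymes and regulators of autophagy. A microRNA acts the other way on its own targets: its seed, the bases near its 5′ end, pairs with 3′ UTRs and lowers those mRNAs.

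The mimic sequences and their possible sites in member genes set the frame for the values. The mature sequence of hsa-miR-708-5p in RefSeq (GRCh38.p14, chr11:79402077-79402099, minus strand) is shown because it was transfected, with its seed, bases 2 to 8, in capitals.
hsa-miR-708-5p: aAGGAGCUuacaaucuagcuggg
The hsa-miR-28-5p mimic belongs to the same seed family. A seed match was counted where the sense strand of a 3′ UTR held AGCTCCT, which pairs with bases 2 to 8, or GCTCCTA, which pairs with bases 2 to 7 and has an A opposite base 1 (the motifs overlap by 6 letters). A match occurred in 11 of 40 members (27.5%), against 3337 of 19492 protein-coding genes with an annotated 3′ UTR (17.1%; GENCODE 44, 1 transcript per gene). The 6 shared letters GCTCCT alone were not counted. They were the only seed pairing in 7 members (BBC3, PMAIP1, AEN, POLH, BTG2, ZMAT3 and TP53INP1) and in 3064 of all genes. The members' 3′ UTRs were longer than those of all genes, with medians of 2076 and 1065 bases. PRKAB1, RRM2B, DRAM1, TNFRSF10D, RPS27L, SUSD6, SESN1 and APAF1 held AGCTCCT, and TIGAR, FBXO22 and PLK3 held GCTCCTA alone. The windows below (hg38, 3′ UTR exons, sense strand) are those of DRAM1, SESN1 and PRKAB1, with the seed match in capitals. They passed the test as higher in no comparison with siNT, except PRKAB1 in MCF10A under scaling to library size. APAF1 did not pass as higher either and is not shown. Of the 11 members with a match, 7 rose with miR-28 in MCF10A, beside 225 of 2418 of all genes with a match. SUSD6 and RPS27L hold 2 AGCTCCT matches each, as DRAM1 does, and rose with both mimics in MCF10A.
DRAM1, chr12:101922518-101922545, exon 7: agttcggggtAGCTCCTcattaactatt
DRAM1, chr12:101923380-101923407, exon 7: ttagattgggAGCTCCTtgagggcagag
SESN1, chr6:108986619-108986646, minus strand, exon 10: aaggctgtgcAGCTCCTtaaataataaa
PRKAB1, chr12:119680478-119680505, exon 7: caggcagagcAGCTCCTgcagcgcctcg

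A p53 response element was sought in RefSeq promoters (GRCh38.p14), from 250 bases before to 50 bases after the start site. A match was a pair of decamers with a spacer of 0 or 1 base, at most 3 differences from the consensus over 20 positions, and the core C and G of each decamer kept, on either strand. Of 30 members with a promoter in the table, 8 held a match (26.7%), against 795 of 27305 genes (2.91%) and 837 of 35116 promoters (2.38%). The members were listed as direct p53 targets, so a higher share can come from how the list was made. The members were DDB2, AEN, FAS, FDXR, GDF15, PMAIP1, RPS27L and SESN1. TNFRSF10A, TNFRSF10B, TNFRSF10D, RRM2B, ASCC3, GADD45A, PHLDA3, TP53INP1, FBXO22 and CMBL were not searched. The closest matches, which belong to members that rose, are shown with the core C and G in capitals. That of DDB2 differed from the consensus at 0 positions, and those of AEN and FAS differed at 2.
DDB2, chr11:47214979-47214999, plus strand, first base at position 6 from the start site: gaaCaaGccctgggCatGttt
AEN, chr15:88621306-88621325, plus strand, position −34: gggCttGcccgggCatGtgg
FAS, chr10:88991309-88991328, plus strand, position −122: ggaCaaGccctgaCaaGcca
The match in SESN1, which passed the test in no comparison with siNT, had 3 differences: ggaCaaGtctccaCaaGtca (chr6:109009018-109009037, minus strand, position −49). A match describes letters and does not show that p53 binds there.

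Values below are scaled counts, estimated reads per gene after the size factor of the library. Depth was 19.4–31.7 M reads on genes per library in MCF10A and 23.8–40.4 M in RPE-1, and the lowest member value, 70.7 for BBC3 in MCF10A, was well above the 2.35–4.40 that 3 reads represent. Breast basal markers were all listed in MCF10A (8 of 8) and all 6 markers of cultured RPE-1 were listed there. Of the basal markers 2 were also listed in RPE-1, at 70.4 or less, and 5 of the 6 RPE-1 markers were also listed in MCF10A. Of 4 markers of mature pigment epithelium, BEST1 and PMEL were listed in RPE-1 and RPE65 and TYR were not, and RPE65, BEST1 and PMEL were listed in MCF10A. The RPE-1 miR-28 replicate 1 library stood apart. Ribosomal RNA genes took 15.1% of its reads, against 4.23–7.20% in the other RPE-1 libraries, and the summed level of 10 interferon-stimulated genes was 37741, against 350494 and 228826 in the other miR-28 libraries. The counts and the median with miR-28 in RPE-1 are therefore also given without it, as are values of members that it moved. Without it CYFIP2 lost its call and ZMAT3 gained one, and no other member's call with miR-28 against siNT changed. In MCF10A siNT replicate 8 stood apart in the summed level of 10 genes of the integrated stress response, at 22066 against 38173 and 42576 in the other siNT libraries. Without it 25 members were called with miR-28 and 28 with miR-708, and the calls lost were those of E2F7, GDF15, PLK3, SUSD6 and TNFRSF10A with miR-28 and of CMBL, NADSYN1 and SUSD6 with miR-708.

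Most p53 target genes were higher after either mimic. Fold changes are log2 differences of (scaled count + 1) ± SE from limma, with n = 3 libraries per group and Benjamini-Hochberg adjusted p over all genes of the line, and a gene was called where the adjusted p was below 0.05. In MCF10A, miR-28 raised 30 of 40 members and lowered 0, where 22.7% of all 14726 genes tested were called, 10.7% higher and 12% lower. The median member changed by 0.69, against 0.01 over all genes. miR-708 raised 29 of 40 members and lowered 2 in MCF10A, with 32.8% of all genes called, 15.5% higher and 17.3% lower, and the median was 0.60.

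The same direction prevailed in RPE-1 with more exceptions. miR-28 raised 25 of 39 members and lowered 4, against 46.8% of all 14527 genes called, 23.3% higher and 23.5% lower, with a median of 0.70. Without replicate 1 the counts were 24 and 5 and the median was 0.57. miR-708 raised 22 of 39 members and lowered 9, while 62.1% of all genes were called, 30.9% higher and 31.2% lower, and the median was 0.47. With scaling to library size in place of the size factors, 26 members were called higher and 6 lower (81.2% of calls higher in place of 71.0%), but that scaling moved the median of all genes in this comparison to 0.32.

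Beyond 2-fold, 10 of 40 members were higher with miR-28 in MCF10A (3.97% of all genes) and 9 with miR-708 (6.15%). In RPE-1 they were 13 of 39 with miR-28 (7.03% of all genes) and 12 with miR-708 (12.7%). Both mimics of a line were compared with the same siNT libraries, so their values are given side by side and not as independent evidence of each other.

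**Figure D1:**
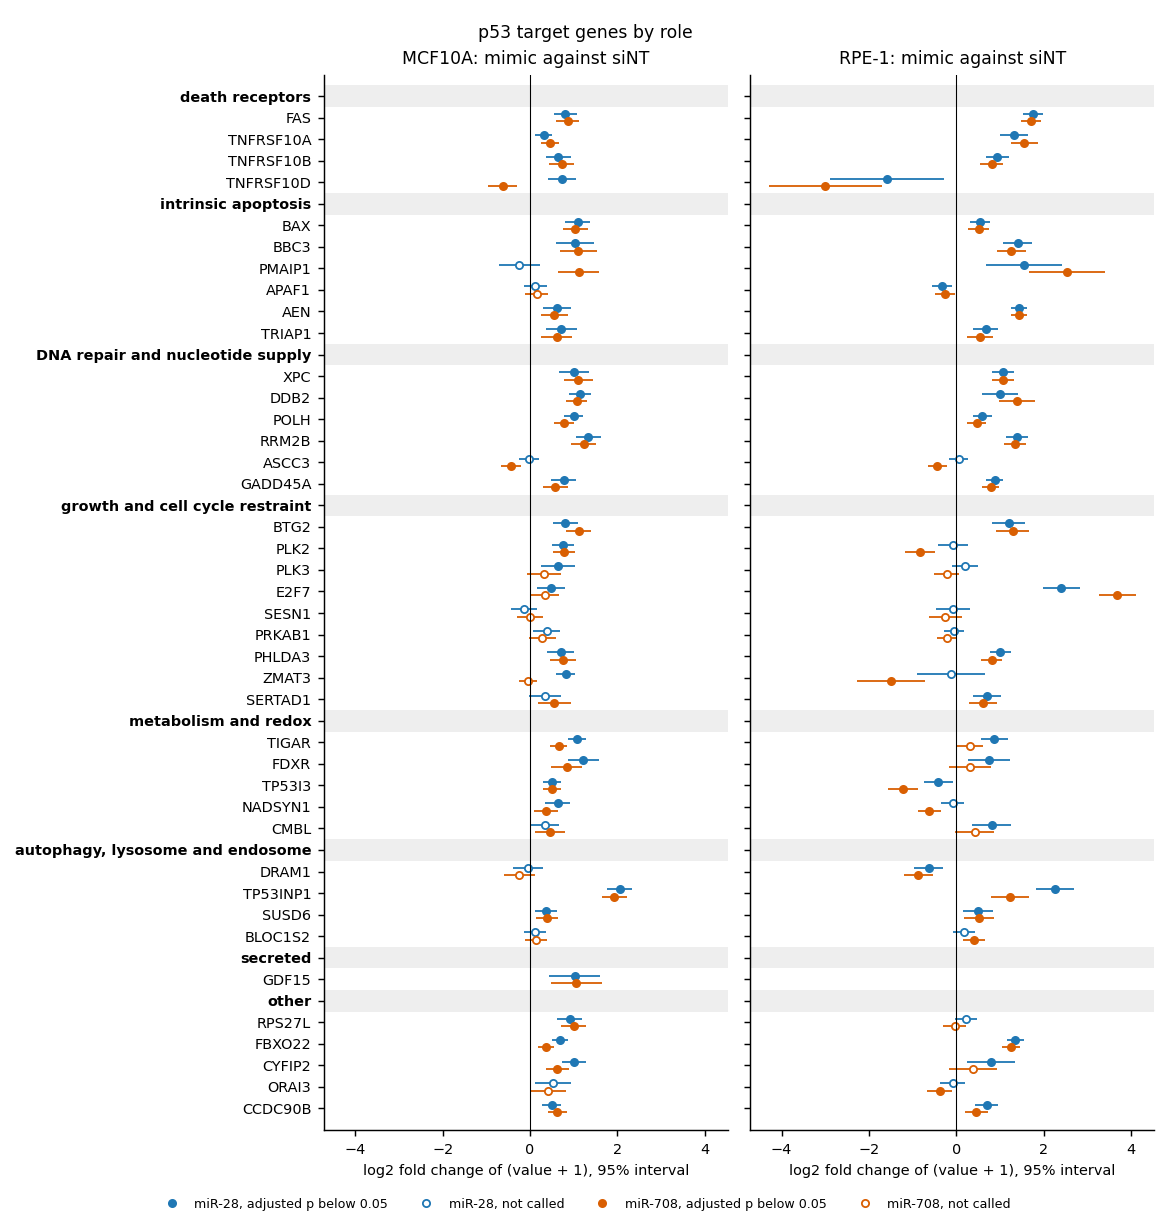
Log2 fold change against siNT (x axis, points) with its 95% interval (bars) for each p53 target gene by role, in MCF10A (left) and RPE-1 (right); filled points passed the test. Most points lie right of 0, with 30 and 29 of 40 called higher in MCF10A and 25 and 22 of 39 in RPE-1, and TNFRSF10D at −3.0 is the farthest to the left.

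**Figure D2:**
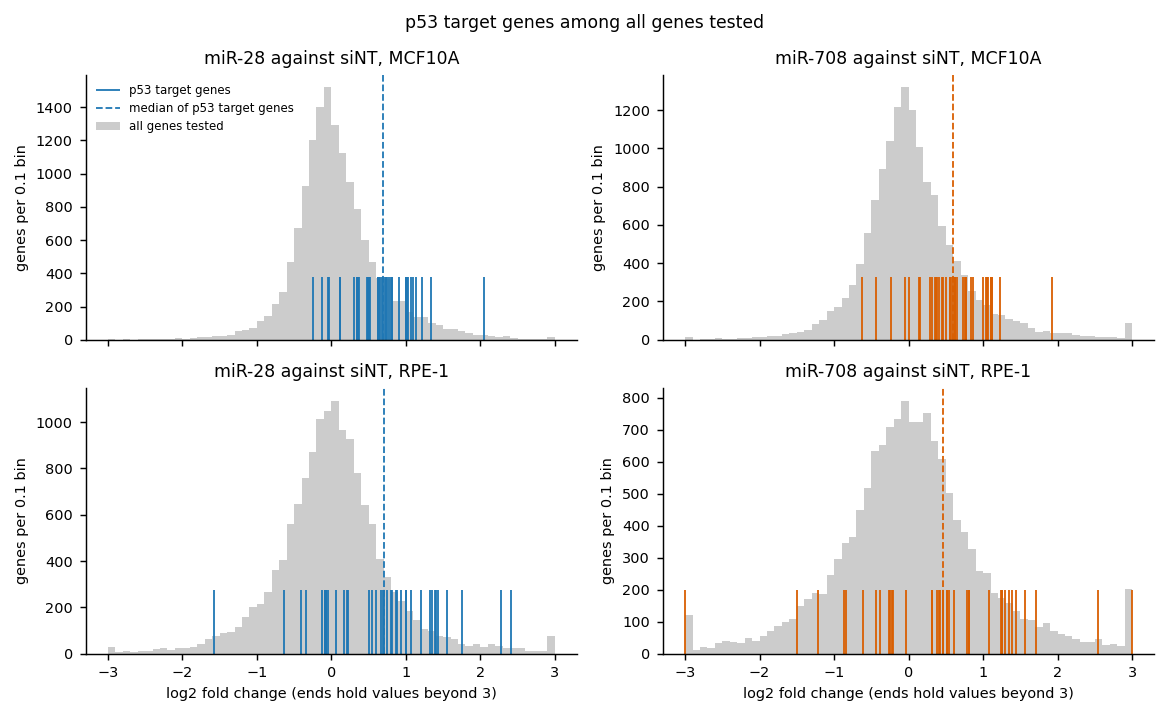
Distribution of log2 fold changes of all genes tested (histogram) with the p53 target genes marked, in 4 comparisons with siNT; changes beyond the ends of the axis are drawn at the ends. The members' medians of 0.69, 0.60, 0.70 and 0.47 lie right of the medians of all genes, which are within 0.01 of 0.

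The lines shared no library, and for each mimic the members called higher overlapped between them. With miR-28, 22 members rose in both lines, 75.9% of the 29 that rose in MCF10A and 88% of the 25 that rose in RPE-1, of 39 tested in both. The corresponding shares over all genes were 55.2% and 24.5%. With miR-708, 20 members rose in both lines, 71.4% of 28 and 90.9% of 22, against 62% and 30.6% over all genes. TNFRSF10D and TP53I3 rose in MCF10A and fell in RPE-1 with miR-28, and PLK2, TP53I3 and NADSYN1 did so with miR-708.

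CDKN1A and MDM2, left out of the list, behaved unlike one another. MDM2, the ligase that p53 induces against itself, rose by 1.24 ± 0.14 and 0.94 ± 0.14 in MCF10A and by 1.48 ± 0.13 and 1.40 ± 0.13 in RPE-1, passing the test each time (miR-28, then miR-708). CDKN1A, which encodes the cyclin-dependent kinase inhibitor p21, measured 2898, 2523 and 2847 in siNT, 2943, 3094 and 3642 with miR-28, and 2609, 2522 and 2648 with miR-708 in MCF10A. Every miR-28 library lay above every siNT library there, at 0.22 ± 0.10 (adjusted p = 0.131) with a 95% interval of 0.00 to 0.44. The change passed the test under scaling to library size (0.33, adjusted p = 0.0328), which moved the median of all genes in this comparison to 0.12. The miR-708 libraries overlapped with siNT, with an interval of −0.31 to 0.14. In RPE-1 CDKN1A measured 5698, 6211 and 6336 in siNT, 5895, 4753 and 5701 with miR-28, and 3112, 3470.0 and 2993 with miR-708, and it changed with miR-708 by −0.93 ± 0.10 (adjusted p = 2.23e-05) while the interval for miR-28 was −0.39 to 0.06. CDKN1A carries seed matches in its own 3′ UTR, of which 1 is at chr6:36687132-36687159 (exon 3, aacaccttccAGCTCCTgtaacatactg).

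The death receptors rose in both lines except for TNFRSF10D. FAS, TNFRSF10A and TNFRSF10B encode receptors that start the extrinsic apoptosis cascade when bound by ligand, and TNFRSF10D encodes a decoy that binds the TRAIL ligand without passing on the death signal. FAS (chr10:88953813-89029605, hg38) measured 2124, 1987 and 2574 in siNT, 8021, 7084 and 7393 with miR-28, and 7295, 7057 and 7382 with miR-708 in RPE-1. All 6 FAS values after a mimic lay above all siNT values, and the changes were 1.76 ± 0.10 (adjusted p = 9.79e-07) with miR-28 and 1.71 ± 0.10 (adjusted p = 4.47e-07) with miR-708. In MCF10A FAS rose by 0.81 ± 0.12 (adjusted p = 0.0014) and 0.87 ± 0.12 (adjusted p = 0.000424), from 2534 ± 245 (SD, n = 3) in siNT.

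TNFRSF10A (chr8:23190452-23225102) was low in RPE-1 siNT cells, at 142, 165 and 176 in siNT, 483, 378.5 and 353 with miR-28, and 453, 504 and 471 with miR-708. Neither mimic group overlapped with siNT, and the gene rose by 1.32 ± 0.14 (adjusted p = 5.05e-05) and 1.56 ± 0.14 (adjusted p = 7.17e-06). In MCF10A it measured 2054, 1967 and 2012 in siNT, 2507, 2329 and 2644 with miR-28, and 2886, 2515 and 2877 with miR-708, a smaller rise of 0.31 ± 0.09 (adjusted p = 0.0323) and 0.45 ± 0.09 (adjusted p = 0.0033). The miR-28 call in MCF10A was lost in 6 of 15 alternative settings, among them the removal of any siNT library or of miR-28 replicate 7 or 9, with adjusted p up to 0.103. TNFRSF10B rose by 0.65 and 0.73 in MCF10A and by 0.94 and 0.82 in RPE-1.

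TNFRSF10D (chr8:23135588-23164027), the decoy, differed between the mimics and between the lines. In MCF10A it measured 2358, 2535 and 2481 in siNT, 3077, 4734 and 4679.5 with miR-28, and 1562, 1470.1 and 1747 with miR-708. Every miR-28 value was above siNT and every miR-708 value below it, with changes of 0.73 ± 0.15 (adjusted p = 0.0062) and −0.63 ± 0.15 (adjusted p = 0.0083). In RPE-1 the values were 3122, 4131 and 3451 in siNT, 4177, 470.3 and 850.4 with miR-28, and 508, 417 and 413 with miR-708. The miR-708 libraries were all far below siNT, a change of −3.0 ± 0.59 (adjusted p = 0.00122), whereas with miR-28 replicate 1 lay above all siNT libraries and the other replicates far below them. The miR-28 change was −1.58 ± 0.59 (adjusted p = 0.0478) with all libraries and −2.48 (adjusted p = 7.57e-06) without replicate 1. It lost its call without replicate 2, at −0.91 (adjusted p = 0.15), and without replicate 3, at −1.34 (adjusted p = 0.141), and also without any siNT or miR-708 library of RPE-1 (adjusted p up to 0.15 over all settings).

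Of the genes of intrinsic apoptosis, 4 of 6 rose with miR-28 and 5 of 6 with miR-708 in MCF10A, and 5 of 6 rose with each mimic in RPE-1. Over all genes 10.7% and 15.5% rose in MCF10A and 23.3% and 30.9% in RPE-1. BAX opens the mitochondrial outer membrane, BBC3 (PUMA) and PMAIP1 (NOXA) are BH3-only proteins that free it to do so, APAF1 builds the caspase-activating apoptosome, AEN is a nuclease that degrades DNA in dying cells, and TRIAP1 acts against apoptosis. BAX (chr19:48954815-48961798) measured 559, 669 and 636 in siNT, 1221, 1292 and 1457 with miR-28, and 1134, 1195 and 1525 with miR-708 in MCF10A. The BAX groups did not overlap with siNT there, and it rose by 1.09 ± 0.13 (adjusted p = 0.000447) and 1.04 ± 0.13 (adjusted p = 0.000224). BBC3 (chr19:47220822-47232766) measured 71.8, 70.7 and 74.9 in siNT, 129, 162 and 157 with miR-28, and 134, 151 and 191 with miR-708 in MCF10A. It lay above siNT in all 6 mimic libraries, by 1.02 ± 0.20 (adjusted p = 0.00479) and 1.11 ± 0.20 (adjusted p = 0.00167), and it rose by 1.40 and 1.26 in RPE-1. In RPE-1 BAX rose by 0.54 and 0.51, and the differences from MCF10A were −0.55 ± 0.17 (adjusted p = 0.0232) and −0.53 ± 0.17 (adjusted p = 0.0166). Both BAX differences were lost without MCF10A siNT replicate 7 or the replicate 9 library of the mimic, and that with miR-28 also without RPE-1 siNT or miR-28 replicate 2 (adjusted p up to 0.0725 with miR-28, and 0.115 with miR-708 under scaling to library size).

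PMAIP1 (chr18:59899996-59904305) measured 321, 219.6 and 371 in siNT, 314, 219.8 and 229 with miR-28, and 521, 698 and 732 with miR-708 in MCF10A. The miR-28 libraries overlapped with siNT, at −0.24 ± 0.22 (adjusted p = 0.447), and the miR-708 libraries were higher, at 1.11 ± 0.22 (adjusted p = 0.00277). In RPE-1 it measured 313, 342.5 and 345 in siNT, 494, 2114 and 899 with miR-28, and 1596, 1987 and 2297 with miR-708. All mimic libraries were above siNT, with replicate 1 the lowest of the miR-28 libraries, and PMAIP1 rose by 1.55 ± 0.39 (adjusted p = 0.00833) and 2.54 ± 0.39 (adjusted p = 0.00025). Without replicate 1 the miR-28 change was 2.05 (adjusted p = 0.000168), and without replicate 2 it was 1.0 and still passed the test.

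AEN (chr15:88621337-88632281) measured 889, 842 and 889 in siNT, 2223, 2373 and 2513 with miR-28, and 2320.2, 2227 and 2567 with miR-708 in RPE-1. Its siNT values were tightly grouped below every mimic library, and AEN rose by 1.44 ± 0.08 (adjusted p = 1.08e-06) and 1.44 ± 0.08 (adjusted p = 4.43e-07), against 0.62 and 0.56 in MCF10A, where it also passed the test. TRIAP1 rose by 0.71 and 0.62 in MCF10A and by 0.67 and 0.54 in RPE-1. APAF1 (chr12:98645290-98735433) was the exception, at 2344, 2292 and 2762 in siNT, 1991, 1895 and 1953 with miR-28, and 2018, 1842 and 2316 with miR-708 in RPE-1. The miR-28 values lay just below siNT and 1 miR-708 value lay within the siNT range, with changes of −0.34 ± 0.10 (adjusted p = 0.0214) and −0.26 ± 0.10 (adjusted p = 0.047). Scaling to library size left −0.25 (adjusted p = 0.0812) and 0.06 (adjusted p = 0.66), so neither the fall nor, for miR-708, its direction held under that setting. The APAF1 calls were also lost without siNT replicate 3 or miR-28 replicate 3 for both mimics and, for miR-708, without siNT replicate 1 or miR-708 replicate 1 or 2, with adjusted p up to 0.0812 and 0.66. In MCF10A APAF1 did not pass the test (0.12 and 0.16).

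DNA repair and nucleotide supply rose as a group apart from ASCC3, with 5 of 6 genes called higher in each of the 4 comparisons with siNT. Between 10.7% and 30.9% of all genes were called higher in those comparisons. XPC and DDB2 recognise damage for nucleotide excision repair, POLH is the polymerase that copies past ultraviolet lesions, RRM2B supplies deoxynucleotides, and GADD45A responds to DNA damage and growth arrest. RRM2B (chr8:102204502-102238961) measured 6385, 5338 and 6517 in siNT, 13151, 16543 and 16291 with miR-28, and 12478, 15028 and 15418 with miR-708 in MCF10A. DDB2 (chr11:47214465-47239217) measured 542, 558 and 569.7 in siNT, 1129, 1158 and 1420.3 with miR-28, and 1093, 1162 and 1245 with miR-708. XPC (chr3:14145147-14178621) measured 1439, 1528 and 1441 in siNT, 2291, 3085 and 3617 with miR-28, and 2712, 3327 and 3529 with miR-708. For all of them every mimic library lay above every siNT library. RRM2B rose by 1.33 ± 0.13 (adjusted p = 0.000224) and 1.23 ± 0.13 (adjusted p = 8.94e-05). DDB2, the gene with the closest promoter match above, rose by 1.14 ± 0.11 (adjusted p = 0.000202) and 1.06 ± 0.11 (adjusted p = 8.27e-05). XPC rose by 1.0 ± 0.15 (adjusted p = 0.00152) and 1.11 ± 0.15 (adjusted p = 0.000395).

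The 5 genes that rose in MCF10A also rose in RPE-1. RRM2B rose by 1.40 and 1.35, and its 3′ UTR holds a seed match. DDB2 rose by 1.0 and 1.39 and XPC by 1.08 and 1.08. POLH rose by 1.0 and 0.77 in MCF10A and by 0.59 and 0.47 in RPE-1, and GADD45A by 0.77, 0.58, 0.88 and 0.79 in the same order. The POLH response to miR-28 was lower in RPE-1, with a difference of −0.40 ± 0.14 (adjusted p = 0.0451), a call lost in 15 of 24 alternative settings, among them the removal of any RPE-1 siNT library (adjusted p up to 0.121). ASCC3, a helicase of alkylation repair, was at −0.03 and 0.06 with miR-28 and changed with miR-708 by −0.44 ± 0.10 (adjusted p = 0.00819) in MCF10A and −0.43 ± 0.10 (adjusted p = 0.003) in RPE-1. The ASCC3 call in RPE-1 was lost under scaling to library size.

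**Figure D3:**
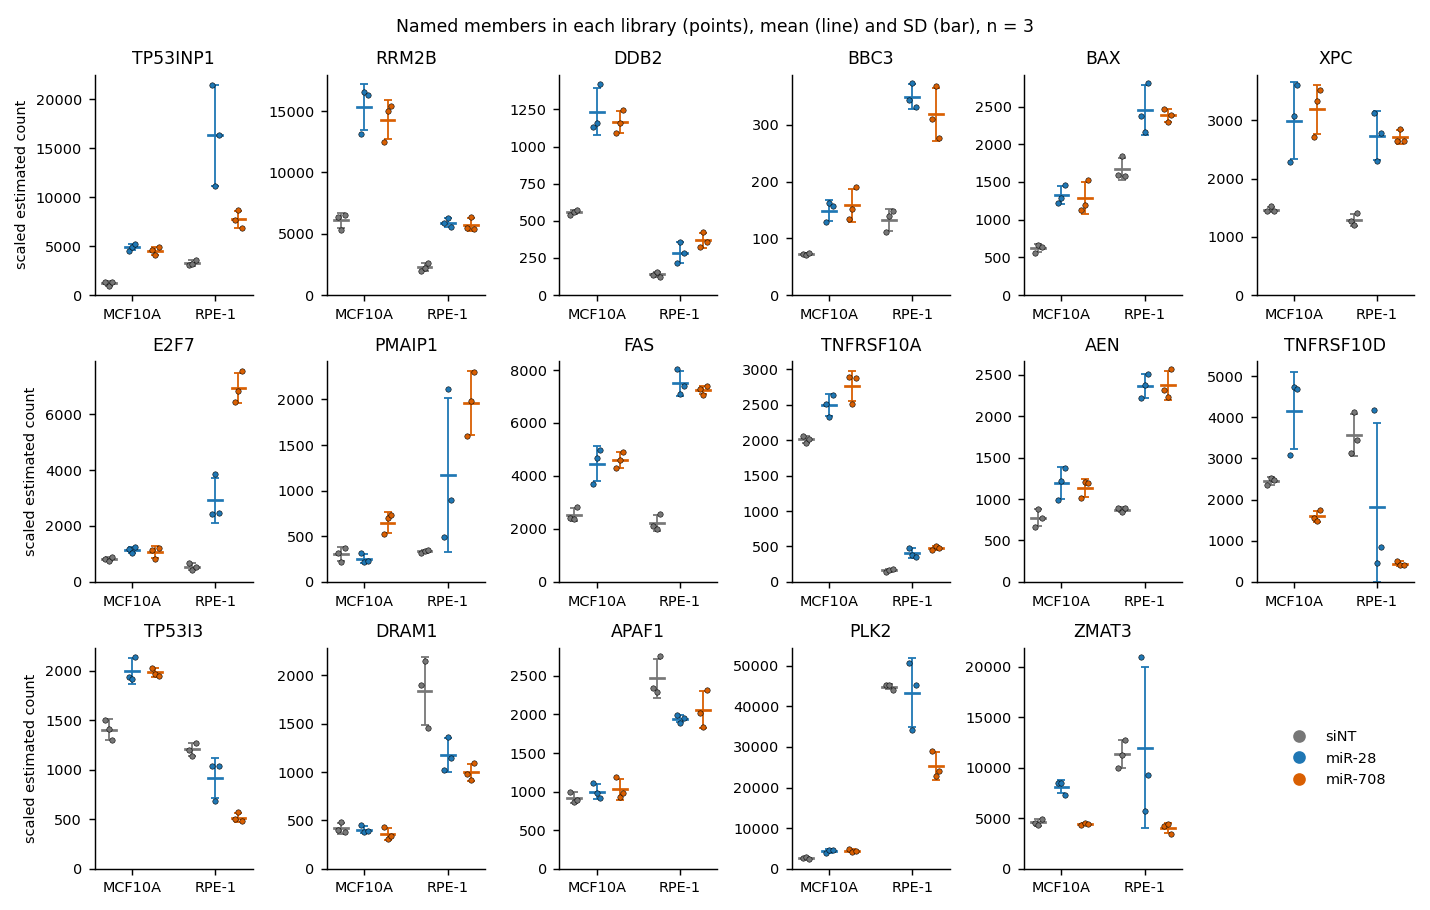
Scaled counts in every library (points, y axis from 0) with the mean (line) and SD (bar) of 3 replicates for the members given in full, by line and group; the tables of the lines were scaled separately, and the SD bar of TNFRSF10D with miR-28 in RPE-1 is cut at its lower end because the SD exceeds the mean. TP53INP1, FAS, AEN and E2F7 in RPE-1 show mimic libraries clear of siNT, and TNFRSF10D, ZMAT3 and PMAIP1 show the wide spread of the RPE-1 miR-28 libraries.

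Genes of growth and cell cycle restraint were divided. Of 9, 6 rose with miR-28 and 4 with miR-708 in MCF10A and 0 fell, and 4 rose with each mimic in RPE-1, where miR-708 lowered 2. The shares that rose were 66.7% and 44.4% in MCF10A, beside 10.7% and 15.5% of all genes. In RPE-1 44.4% rose with each mimic, beside 23.3% and 30.9%, and 22.2% fell with miR-708, below the 31.2% of all genes. BTG2, an antiproliferative regulator of transcription and mRNA decay, rose in all comparisons with siNT, by 0.81 and 1.12 in MCF10A and 1.20 and 1.29 in RPE-1. PHLDA3, which restrains AKT signalling, rose by 0.70, 0.75, 1.01 and 0.81 in that order.

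E2F7 (chr12:77021248-77065569), a repressor of the E2F cell cycle programme, had the largest rise of any member. In RPE-1 it measured 669.9, 427 and 536 in siNT, 2443, 3855 and 2457 with miR-28, and 6440.3, 6837 and 7534 with miR-708. The groups formed 3 separate steps, with changes of 2.41 ± 0.19 (adjusted p = 7.13e-06) for miR-28 and 3.69 ± 0.19 (adjusted p = 2.32e-07) for miR-708. In MCF10A E2F7 measured 806, 762 and 907 in siNT, 1178, 1023 and 1243 with miR-28, and 1145, 827 and 1219 with miR-708. The miR-28 libraries there lay just above siNT, at 0.48 ± 0.15 (adjusted p = 0.0389), and the miR-708 libraries overlapped with siNT, at 0.35 ± 0.15 (adjusted p = 0.0898). The replicate block brought the miR-708 change in MCF10A past the test (0.35, adjusted p = 0.019), and the miR-28 call was lost when any siNT or miR-28 library was left out (adjusted p up to 0.12).

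PLK2 (chr5:58453982-58460139), a stress-responsive kinase, moved in opposite directions in the lines with miR-708. It measured 2587, 2947 and 2325 in siNT, 3871, 4654 and 4703 with miR-28, and 4831, 4095 and 4493 with miR-708 in MCF10A. It measured 45313, 45195 and 44104 in siNT, 50693, 34161 and 45293 with miR-28, and 29096, 22793 and 24012 with miR-708 in RPE-1. In MCF10A all mimic libraries were above siNT, by 0.75 ± 0.12 (adjusted p = 0.00165) and 0.78 ± 0.12 (adjusted p = 0.000659). In RPE-1 the miR-708 libraries were all below siNT, at −0.83 ± 0.16 (adjusted p = 0.000849), and the miR-28 libraries spanned the siNT range (−0.07 ± 0.16, adjusted p = 0.745).

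ZMAT3 (chr3:178960121-179072215), an RNA-binding zinc finger protein that regulates splicing, separated the mimics. In MCF10A it measured 4569, 4287 and 4969 in siNT, 8459, 8510.1 and 7353 with miR-28, and 4342, 4569 and 4392 with miR-708. Only the miR-28 libraries rose there, by 0.81 ± 0.10 (adjusted p = 0.000402), while the miR-708 libraries fell within the siNT range (−0.05 ± 0.10, adjusted p = 0.703). In RPE-1 it measured 10001, 11271 and 12761 in siNT, 20958, 5725 and 9260.1 with miR-28, and 4232, 4400.3 and 3456 with miR-708. The miR-708 libraries were below siNT, at −1.49 ± 0.35 (adjusted p = 0.00384). The miR-28 libraries lay on both sides of siNT (−0.12 ± 0.35, adjusted p = 0.796), with replicate 1 the highest, and the change was −0.63 (adjusted p = 0.0169) without replicate 1 and 0.30 (adjusted p = 0.392) without replicate 2.

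The remaining growth genes changed less. SERTAD1, a cyclin D–CDK4 regulator, passed the test with miR-708 in MCF10A (0.55) and with both mimics in RPE-1 (0.70 and 0.60), and with miR-28 in MCF10A it was at 0.34. PLK3, a kinase related to PLK2, rose with miR-28 in MCF10A by 0.64 ± 0.18 (adjusted p = 0.024) and passed no other test against siNT. SESN1, which restrains mTORC1 signalling, and PRKAB1, a subunit of AMP-activated kinase, passed none of the 4 tests against siNT. SESN1 ranged from −0.25 to 0.00 and PRKAB1 from −0.21 to 0.38. Under scaling to library size PRKAB1 passed the test as higher with both mimics in MCF10A. That scaling moved the medians of all genes there to 0.12 with miR-28 and 0.14 with miR-708.

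The metabolic enzymes rose in MCF10A and divided in RPE-1. In MCF10A 4 of 5 rose with miR-28 and 5 of 5 with miR-708, whereas in RPE-1 3 rose and 1 fell with miR-28 and 0 rose and 2 fell with miR-708. Over all genes 10.7% and 15.5% rose in MCF10A. In RPE-1 23.3% and 30.9% of all genes rose and 23.5% and 31.2% fell. TIGAR, which lowers glycolytic flux, rose in MCF10A by 1.07 ± 0.09 (adjusted p = 0.000107) and 0.65 ± 0.09 (adjusted p = 0.000452) and in RPE-1 with miR-28 by 0.87 ± 0.14 (adjusted p = 0.000549). FDXR, the mitochondrial ferredoxin reductase, rose by 1.22 and 0.84 in MCF10A and by 0.75 with miR-28 in RPE-1. The RPE-1 changes of TIGAR and FDXR with miR-708, 0.32 and 0.31, did not pass the test, nor did that of CMBL, 0.42. All of them did under scaling to library size, where 3 of 5 metabolic enzymes rose with miR-708 in RPE-1. That scaling also moved the median of all genes in this comparison to 0.32. CMBL, a hydrolase, rose with miR-708 in MCF10A (0.46) and with miR-28 in RPE-1 (0.81), and its change with miR-28 in MCF10A (0.34 ± 0.15, adjusted p = 0.13) passed with the replicate block (adjusted p = 0.0491).

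TP53I3 (chr2:24077433-24085861), a quinone oxidoreductase linked to oxidative stress, changed sign between the lines. In MCF10A it measured 1502, 1412 and 1297 in siNT, 1931, 1909.6 and 2141 with miR-28, and 2029, 1967 and 1946 with miR-708. In RPE-1 it measured 1201, 1140.1 and 1271 in siNT, 1034, 688 and 1039 with miR-28, and 503, 569 and 477 with miR-708. All mimic libraries were above siNT in MCF10A, by 0.51 ± 0.09 (adjusted p = 0.00348) and 0.50 ± 0.09 (adjusted p = 0.002), and all were below it in RPE-1, with changes of −0.41 ± 0.15 (adjusted p = 0.0461) and −1.22 ± 0.15 (adjusted p = 5.50e-05). The RPE-1 miR-28 call was close to the threshold and was lost under scaling to library size (−0.33, adjusted p = 0.107), with the replicate block (−0.41, adjusted p = 0.0504) and without any siNT or miR-708 library or miR-28 replicate 2 (adjusted p up to 0.127). NADSYN1, which makes NAD, rose by 0.63 and 0.37 in MCF10A, was at −0.08 with miR-28 in RPE-1 and changed there with miR-708 by −0.61 ± 0.12 (adjusted p = 0.00105).

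Among regulators of autophagy, lysosomes and endosomes, TP53INP1 rose most and DRAM1 fell. TP53INP1 (chr8:94925972-94949378) promotes autophagy and p53 activity, DRAM1 is a lysosomal membrane protein, SUSD6 is a membrane protein and BLOC1S2 is a subunit of complexes that position lysosomes. TP53INP1 measured 1282, 939.6 and 1352 in siNT, 4524, 4940.0 and 5170.5 with miR-28, and 4556, 4070.5 and 4889.7 with miR-708 in MCF10A. Its rise of 2.05 ± 0.13 (adjusted p = 2.88e-05) with miR-28 and 1.93 ± 0.13 (adjusted p = 4.96e-06) with miR-708 was the largest of any member in that line. In RPE-1 TP53INP1 measured 3064, 3159 and 3594 in siNT, 21472, 11141 and 16371 with miR-28, and 7626, 8678 and 6885 with miR-708. Each miR-28 library was above each miR-708 library, and each of those above siNT, with changes of 2.27 ± 0.20 (adjusted p = 1.18e-05) and 1.24 ± 0.20 (adjusted p = 0.000296), and of 2.05 (adjusted p = 3.31e-06) for miR-28 without replicate 1.

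DRAM1 (chr12:101877580-102012130), whose 3′ UTR holds the pair of seed matches shown above, measured 1899, 2151 and 1456 in siNT, 1019.8, 1359 and 1151 with miR-28, and 977, 921 and 1094 with miR-708 in RPE-1. All mimic libraries lay below siNT, with changes of −0.63 ± 0.15 (adjusted p = 0.006) and −0.86 ± 0.15 (adjusted p = 0.000556). In MCF10A DRAM1 passed neither test against siNT (−0.05 and −0.24). SUSD6, whose 3′ UTR also holds 2 AGCTCCT matches, rose by 0.36 to 0.52 in the 4 comparisons with siNT. BLOC1S2 passed the test only with miR-708 in RPE-1 (0.40 ± 0.11, adjusted p = 0.00918).

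GDF15, a secreted stress cytokine, rose in MCF10A by 1.02 ± 0.27 (adjusted p = 0.0189) and 1.06 ± 0.27 (adjusted p = 0.0109). The other 5 members have diverse roles. FBXO22, the substrate receptor of a ubiquitin ligase, rose by 0.68 and 0.37 in MCF10A and by 1.36 and 1.25 in RPE-1, and CCDC90B, a mitochondrial protein, by 0.50, 0.62, 0.70 and 0.46 in that order. RPS27L, a paralog of a small-subunit ribosomal protein, rose in MCF10A by 0.91 and 1.0 and was at 0.22 and −0.04 in RPE-1. CYFIP2, which regulates actin, rose in MCF10A (1.01 and 0.63) and with miR-28 in RPE-1 (0.80 ± 0.25, adjusted p = 0.0229), a call that was lost without miR-28 replicate 1 or 3 or siNT replicate 1 or 2 (adjusted p up to 0.0802). ORAI3, a calcium channel subunit, passed the test only as a fall with miR-708 in RPE-1 (−0.38 ± 0.13, adjusted p = 0.0256), while its change with miR-28 in MCF10A (0.52 ± 0.19, adjusted p = 0.0702) passed with the replicate block (adjusted p = 0.0397). Reads shared between related genes, such as the TNFRSF10 receptors or RPS27L and its paralog, were apportioned by the quantification, so these values are less certain.

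Some calls of members given by fold change were lost when 1 library was left out. With miR-28 in MCF10A these were GDF15 (siNT 8, miR-28 8 or 9), PLK3 (any siNT library, miR-28 7 or 9) and SUSD6 (siNT 8 or 9, miR-28 8 or 9), with adjusted p up to 0.147. With miR-708 there, GDF15 was lost without miR-708 9, TRIAP1 without siNT 7, SUSD6 without siNT 8 or 9 or miR-708 9, and SERTAD1 without siNT 7 or 9 or miR-708 8 or 9. CMBL and NADSYN1 were lost without any siNT library, miR-708 8 or 9 or miR-28 8, CMBL also without miR-708 7 and NADSYN1 without miR-28 9, with adjusted p up to 0.177 over these genes. In RPE-1 with miR-28, FDXR was lost without siNT 1 or miR-28 3 and SUSD6 without siNT 3 or miR-28 2 (adjusted p up to 0.0771). With miR-708, SUSD6 was lost without siNT 3 or miR-708 2 (adjusted p up to 0.0581), and ORAI3 without siNT 1 or 2, miR-708 1 or 3 or under scaling to library size (adjusted p up to 0.725).

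The size of the response differed between the lines for part of the list. For miR-28, 14 of 39 members passed the test of the difference of fold changes (RPE-1 minus MCF10A). Of the 39, 6 had a higher value in RPE-1 (15.4%) and 8 a lower one (20.5%), where 23.4% of 13339 genes passed, 12.1% higher and 11.3% lower. For miR-708, 18 of 39 passed, 6 higher (15.4%) and 12 lower (30.8%), against 39.8% of genes, 20.2% higher and 19.6% lower. The share of members that was higher was thus above that of all genes with miR-28 and below it with miR-708. Without RPE-1 miR-28 replicate 1, 15 and 18 members passed. Under scaling to library size the miR-708 count was 7 higher and 6 lower (53.8% higher in place of 33.3%).

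E2F7 had the highest differences, 1.93 ± 0.24 (adjusted p = 2.12e-05) with miR-28 and 3.34 ± 0.24 (adjusted p = 6.20e-09) with miR-708. PMAIP1 had the next highest differences, 1.79 ± 0.45 (adjusted p = 0.00901) and 1.42 ± 0.45 (adjusted p = 0.0184), and the latter was lost without RPE-1 miR-708 replicate 3 (1.30, adjusted p = 0.0589). TNFRSF10A, FAS, AEN and FBXO22 also responded more in RPE-1 with both mimics. TNFRSF10D differed in the other direction, by −2.31 ± 0.61 (adjusted p = 0.0173) and −2.37 ± 0.61 (adjusted p = 0.00842). The miR-28 value was −3.22 (adjusted p = 3.32e-08) without RPE-1 miR-28 replicate 1, −2.07 (adjusted p = 0.0567) without replicate 3 and −2.20 (adjusted p = 0.056) without RPE-1 siNT replicate 2. TP53I3 (−1.72 ± 0.18, adjusted p = 1.38e-06), PLK2 (−1.61 ± 0.19, adjusted p = 3.24e-06) and ZMAT3 (−1.44 ± 0.37, adjusted p = 0.00791) followed with miR-708.

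**Figure D4:**
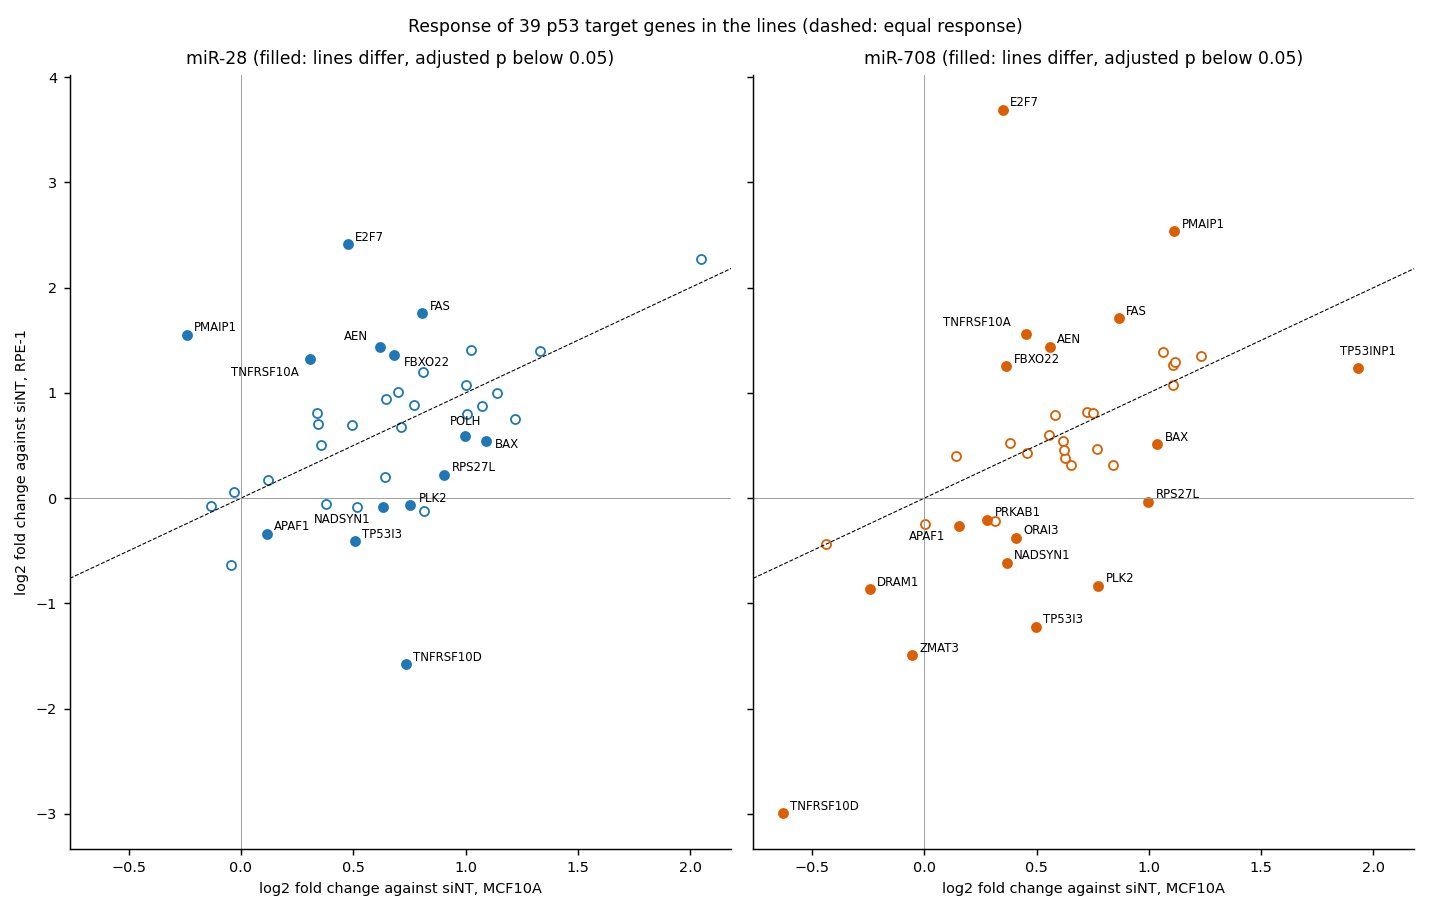
Log2 fold change against siNT in RPE-1 (y axis) against that in MCF10A (x axis) for the 39 members tested in both lines, with miR-28 (left) and miR-708 (right); filled, named points differed between the lines, and the dashed line marks equal response. E2F7 and PMAIP1 lie farthest above the line and TNFRSF10D farthest below it, and 14 points are filled with miR-28 and 18 with miR-708.

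The mimics differed from each other for a part of the members. In MCF10A 4 of 40 passed the test of miR-708 against miR-28, 1 higher and 3 lower, against 1.55% of all genes, 1.28% higher and 0.265% lower. They were TNFRSF10D at −1.36 ± 0.15 (adjusted p = 0.000358), PMAIP1 at 1.36 ± 0.22 (adjusted p = 0.00712), ZMAT3 at −0.87 ± 0.10 (adjusted p = 0.000357) and TIGAR at −0.42 ± 0.09 (adjusted p = 0.0499). The PMAIP1 call was lost without miR-708 replicate 9 (1.26, adjusted p = 0.0508), and the TIGAR call was lost without any library other than miR-708 replicate 7 (adjusted p up to 0.215).

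In RPE-1 9 of 39 members passed, 1 higher (2.56%) and 8 lower (20.5%) with miR-708 than with miR-28. Over all genes 21.2% passed, 9.88% higher and 11.4% lower, so the share of members that passed was near that of all genes. E2F7 was the higher one, at 1.28 ± 0.19 (adjusted p = 0.0021). ZMAT3 was at −1.37 ± 0.35 (adjusted p = 0.0212) and TP53INP1 at −1.03 ± 0.20 (adjusted p = 0.0055). TP53I3, PLK2, TIGAR, NADSYN1, ASCC3 and PLK3 had differences from −0.81 to −0.42. The calls of TIGAR, NADSYN1, ASCC3 and PLK3 were lost under scaling to library size, and leaving out miR-28 replicate 3 also ended those of TIGAR, NADSYN1 and PLK3 (adjusted p up to 0.293). The ZMAT3 call was lost without miR-28 replicate 3 (−1.45, adjusted p = 0.0528), miR-708 replicate 1 (−1.41, adjusted p = 0.0551) or miR-708 replicate 3 (−1.26, adjusted p = 0.0802). The count was 7 without miR-28 replicate 1, 15 without miR-28 replicate 2 and 5 without miR-28 replicate 3, and with scaling to library size 5 members were higher and 4 lower (55.6% higher in place of 11.1%).

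Members with a seed match of either kind in the 3′ UTR had lower median fold changes than members without one. The medians were 0.64 and 0.71 with miR-28 and 0.31 and 0.63 with miR-708 in MCF10A, for 11 and 29 members. In RPE-1 they were 0.20 and 0.80 with miR-28 and −0.21 and 0.57 with miR-708, for 11 and 28 members. Over all genes the medians with and without a match were −0.09 and −0.01, −0.14 and −0.01, −0.16 and 0.03, and −0.27 and 0.04 in the same order. Members with a match still rose in places, 7 of 11 with miR-28 in MCF10A, and members without a match fell in places. In RPE-1 3 of 11 members with a match (TNFRSF10D, DRAM1 and APAF1) and 1 of 28 without one (TP53I3) fell with miR-28. Over all genes 908 of 2387 with a match and 2267 of 10344 without one fell with miR-28. With miR-708 the same 3 of 11 fell, and so did 6 of 28 without a match (TP53I3, PLK2, ZMAT3, NADSYN1, ASCC3 and ORAI3). Of the latter, ZMAT3 holds GCTCCT alone, which was not counted as a match. Over all genes 1111 of 2387 with a match and 3073 of 10344 without one fell with miR-708.

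Other genes of the pathway come from separate lists. Of 20 regulators of p53, 2 rose and 5 fell with miR-28 and 3 rose and 7 fell with miR-708 in MCF10A, with TP63 at −1.08 and −1.29 the lowest. In RPE-1 7 rose and 5 fell with miR-28, and 9 rose and 7 fell with miR-708, among them CHEK2, a kinase that activates p53, at 1.76 and RPL5, a ribosomal protein that binds MDM2, at −1.29. The shares that fell in RPE-1, 25% and 35%, stood beside 23.5% and 31.2% of all genes, and those that rose, 35% and 45%, beside 23.3% and 30.9%. In MCF10A 10% and 15% rose and 25% and 35% fell, beside 10.7% and 15.5% and 12% and 17.3% of all genes. Of further p53 targets outside the list, 4 and 5 of 16 rose and 0 fell in MCF10A, and 8 and 5 of 15 rose and 3 and 5 fell in RPE-1 with miR-28 and miR-708. In RPE-1 with miR-708, 33.3% rose and 33.3% fell, near the 30.9% and 31.2% of all genes, and with miR-28 53.3% rose and 20% fell, beside 23.3% and 23.5%. In MCF10A 25% and 31.2% rose, beside 10.7% and 15.5%.

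Genes of other programmes were read in the same libraries. Of 10 interferon-stimulated genes, 6 rose and 1 fell with miR-28 in MCF10A, and all 10 rose in the other comparisons with siNT, with medians of 1.24 and 6.53 in MCF10A and 5.65 and 7.0 in RPE-1. Their summed level was 4136–4223 in siNT, 5648–7455 with miR-28 and 69717–115387 with miR-708 in MCF10A, and 5966–6658 in siNT, 37741–350494 with miR-28 and 269504–327512 with miR-708 in RPE-1. Of 10 genes of the integrated stress response, 8 fell with each mimic in MCF10A, where miR-708 raised 1 and the summed level was 22066–42576 in siNT, lowest in replicate 8, and 13311–15175 with a mimic. In RPE-1 6 and 7 rose and 1 fell. Of 12 mitotic genes that the DREAM complex represses, 11 rose with miR-708 in RPE-1 and 2 rose in each other comparison with siNT, where 1 fell with miR-708 in MCF10A. Over all genes 10.7% and 15.5% rose in MCF10A and 23.3% and 30.9% in RPE-1 (miR-28, then miR-708). The shares that fell were 12% and 17.3% in MCF10A and 23.5% and 31.2% in RPE-1. A count of 2 of 12 is 16.7%, beside 10.7%, 15.5% and 23.3% of all genes in those comparisons. The part of these programmes in the members' changes was not tested.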

How the data were processed

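RNAseq of polyadenylated RNA (100 bp paired-end reads) was analysed for 18 libraries. Per the labels and the study's methods, the authors trimmed adapters, aligned reads to hg38 with HISAT2 2.1.0, quantified RefSeq transcripts by expectation-maximisation in Partek Flow and ran DESeq2. The authors deposited 1 table of expression signal per line, whose values are estimated reads per gene scaled by size factors. Whole reads could not be recovered, so limma 3.58.1 (R 4.3.3) was run on log2(value + 1), with a trend of the spread over the mean, for genes at 10 or more in at least 3 of 9 libraries, with Benjamini-Hochberg adjustment over all genes. The fold changes understate those of low genes. Line differences are differences of these fold changes with Welch-Satterthwaite degrees of freedom, since the tables were scaled separately. Tables of the authors' own comparisons (positions, pooled means, ratios, fold changes and p-values) were not used. The fit was tested on simulated data.

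Members and lists were chosen with earlier results of these data known. Values in every library were given for the 6 members that rose or fell most per line among those called with both mimics, the 4 that differed most between lines per mimic, the 3 that differed most between mimics per line, and CDKN1A, and MDM2 was given by fold change. Some items that this rule names are not reported here. The value that 3 reads represent covers counting error only. Replicates of the same number deviated together in MCF10A (correlations of siNT with a mimic 0.11–0.30) and not throughout in RPE-1 (0.02–0.15). The mimics deviated together by number in RPE-1 (0.13–0.28) and not throughout in MCF10A (0.03–0.18), so the replicate block was applied as an alternative. Other alternatives were scaling to library size, a pseudocount of 5, no filter, no trend, fitting only the 2 groups compared, and leaving out each replicate.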

Additional observations from a re-analysis of the deposited data

Results flagged for a closer look

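Responses to the same mimic that differed between the lines, by a test of the difference of log2 fold changes (RPE-1 minus MCF10A, limma, adjusted p below 0.05), drew attention. With miR-28 the differences were higher in RPE-1 for E2F7 (1.93), PMAIP1 (1.79), TNFRSF10A (1.01), FAS (0.95), AEN (0.82) and FBXO22 (0.67). They were lower in RPE-1 for TNFRSF10D (−2.31), TP53I3 (−0.92), PLK2 (−0.82), NADSYN1 (−0.71), RPS27L (−0.68), BAX (−0.55), APAF1 (−0.45) and POLH (−0.40). With miR-708 they were higher in RPE-1 for E2F7 (3.34), PMAIP1 (1.42), TNFRSF10A (1.11), FBXO22 (0.89), AEN (0.88) and FAS (0.84). They were lower in RPE-1 for TNFRSF10D (−2.37), TP53I3 (−1.72), PLK2 (−1.61), ZMAT3 (−1.44), RPS27L (−1.03), NADSYN1 (−0.98), ORAI3 (−0.79), TP53INP1 (−0.70), DRAM1 (−0.62), BAX (−0.53), PRKAB1 (−0.49) and APAF1 (−0.42). Over all genes 23.4% and 39.8% passed this test, beside 14 and 18 of 39 members. Of these member differences, 10 of 14 and 11 of 18 passed the test under every one of 24 alternative settings. The others were TNFRSF10D, BAX, APAF1 and POLH with miR-28 and BAX, PMAIP1, APAF1, PRKAB1, DRAM1, TP53INP1 and ORAI3 with miR-708.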

How the results depend on the processing

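The counts of members called stayed within 1.5 times the values given for every alternative that kept all libraries. Scaling to library size moved the median change with miR-708 to 0.74 in MCF10A and 0.79 in RPE-1, and moved the median of all genes by 0.12, 0.14, 0.09 and 0.32 (miR-28 and miR-708 in MCF10A, then in RPE-1). Under it DRAM1 with miR-28 in MCF10A (0.066), APAF1 with miR-708 in RPE-1 (0.057), PLK2 with miR-28 in RPE-1 (0.018) and ZMAT3 with miR-708 in MCF10A (0.090) turned positive. Leaving out 1 library gave 25–31 and 26–32 members called in MCF10A and 25–29 and 29–35 in RPE-1 (miR-28, then miR-708), 2–4 and 5–15 for miR-708 against miR-28 (MCF10A, then RPE-1), and 11–16 and 14–19 for the line differences. The count of 2 came without MCF10A miR-708 replicate 9, and those of 15 and 5 without RPE-1 miR-28 replicates 2 and 3. The medians ranged over 0.62–0.77 and 0.58–0.64 in MCF10A and 0.57–0.79 and 0.45–0.51 in RPE-1. Some ranges crossed 0, namely −0.12 to 0.064 for DRAM1 with miR-28 in MCF10A (positive without siNT replicate 8), −0.10 to 0.0024 for ZMAT3 with miR-708 in MCF10A (positive without siNT replicate 9), and −0.19 to 0.095 for PLK2 and −0.63 to 0.30 for ZMAT3 with miR-28 in RPE-1 (positive without miR-28 replicate 2). APAF1 alone among these had been called. The cause was not tested.

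With the replicate block, 32 and 32 members were called in MCF10A and 28 and 31 in RPE-1, 5 and 9 for miR-708 against miR-28, and 16 and 19 for the line differences. By the correlations, the numbers paired siNT with the mimics in MCF10A (0.11–0.30) and more weakly in RPE-1 (0.02–0.15). They also paired the mimics with each other in RPE-1, where the block kept all 9 calls of miR-708 against miR-28 and added none. In MCF10A the block added CMBL and ORAI3 with miR-28 and E2F7 with miR-708, and changed no other call against siNT.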
